A study of Mus musculus with 8 samples.

Results

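Genes of the CC chemokine family were followed by name across mouse liver macrophages: Ccl2, Ccl3, Ccl4, Ccl5, Ccl6, Ccl7, Ccl8, Ccl9, Ccl12 and Ccl24. All 10 are among the 24786 gene symbols of the count tables, and all 10 passed the filter on low counts. PolyA RNA was sequenced from 2 macrophage subsets of C57BL/6 liver, liver-resident Kupffer cells and macrophages derived from monocytes (MoM), taken from wild-type (WT) mice and from mice with the genotype dnTGFβRII (TG), which the series describes as a model of cholangitis. Each of the 4 groups has 2 libraries, numbered 1 and 2. The age and sex of the mice, any pooling of animals and the surface markers used to separate the subsets are not stated in the labels used here, and nothing there says that libraries 1 and 2 came from separate animals, so p-values measure only the spread between these libraries, which may be technical. By background knowledge of this strain, the transgene is a dominant-negative type II TGFβ receptor driven in T cells by a Cd4 promoter, so the macrophages of TG mice are not themselves its intended site of expression.

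CC chemokines are small secreted proteins with adjacent cysteines near the amino end, which attract leukocytes by binding G-protein-coupled receptors. In the liver, Kupffer cells, endothelium and stellate cells are known sources of Ccl2, which draws Ccr2-bearing monocytes out of the blood, and arriving monocytes can then become macrophages. Most mouse CC chemokine genes lie in clusters of tandem relatives, and several of them share a receptor.

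Library depth was 26190194 to 30308132 counts, and levels are given as CPM (counts relative to library size, scaled by edgeR's TMM factors), so that 1 count is worth 0.0309 to 0.0378 CPM. Tgfbr2 stood at 174 to 349 CPM over the 8 libraries and checks neither genotype label, because the transgene is directed to T cells. The summed level of 8 Kupffer cell markers came to 26471 and 26541 CPM for WT Kupffer cells, 26741 and 13408 CPM for TG Kupffer cells, 8215 and 153 CPM in WT MoM, and 516 and 291 CPM in TG MoM. The sum hides opposite moves in Kupffer cells, where 1 of the 8 markers had a positive log2 fold change, TG over WT. That marker, Marco, stood at 687 and 743 CPM in WT and 5492 and 3309 CPM in TG Kupffer cells. Clec4f stood at 11553 and 12314 CPM in WT and 6558 and 2736 CPM in TG Kupffer cells. Several libraries stood apart from their partners. The library Kupffer TG 2 held 494 CPM of the 12 T and NK cell markers against 62.4 CPM in Kupffer TG 1, and 8470 CPM of the 8 sinusoidal endothelial markers against 1642 CPM. MoM WT 1 carried the high Kupffer marker sum just given, and 5260 CPM of endothelial markers against 2010 CPM in MoM WT 2. Several, though not all, of the results that rest on Kupffer TG 2 or MoM WT 1 are given with and without them. The 8 neutrophil markers, of which Ngp, Ly6g, Camp and Ltf were at 0 in at least 1 library, were also summed. Their sums were 1.76 and 2.09 CPM in WT and 32.6 and 14.4 CPM in TG Kupffer cells. In MoM they were 56.8 and 548 CPM in WT and 110 and 3593 CPM in TG. Library 2 thus held more than library 1 in both MoM groups. In WT MoM most of that difference was in Retnlg, at 33.8 and 471 CPM. Ngp stood there at 5.93 and 32.1 CPM, and S100a8 at 3.18 and 4.70 CPM.

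**Figure D1:**
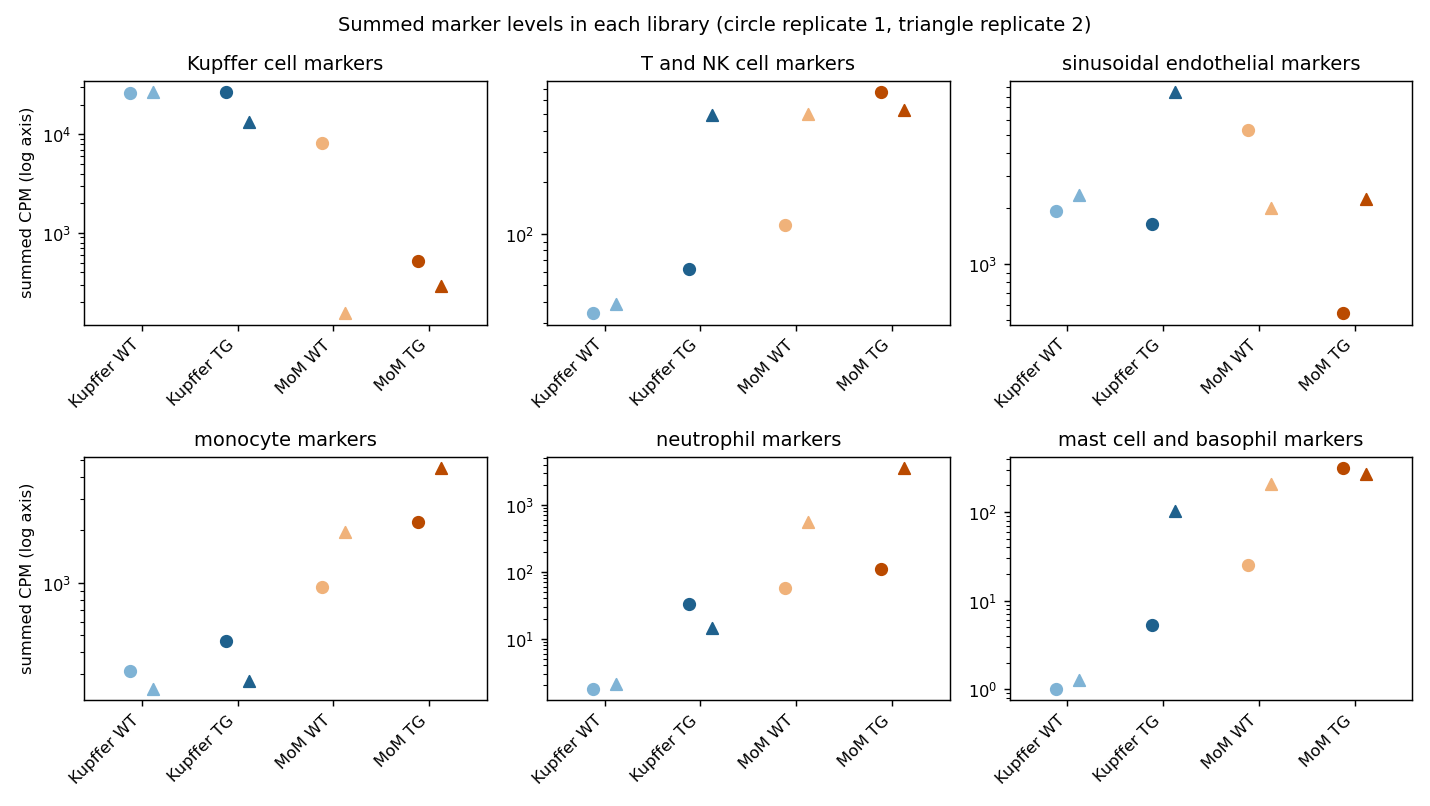
Summed CPM of marker genes in each library, on log axes, for 6 cell types; circles are library 1 and triangles library 2 of each group. Kupffer TG 2 lies above its partner for T and NK cell and for endothelial markers, and MoM WT 1 lies above its partner for Kupffer cell markers (8215 against 153 CPM).

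Of these genes, 9 sit on mouse chromosome 11, in 2 blocks 1409 kb apart (GRCm38, the assembly also named mm10, with GENCODE M21 gene models). The first block of 4 genes spans 81.2 kb and holds the monocyte chemoattractant relatives, all on the plus strand: Ccl2 at chr11:82035571-82037453, Ccl7 at chr11:82045712-82047525, Ccl12 at chr11:82101845-82103400 and Ccl8 at chr11:82115185-82116799. The second block of 5 genes spans 138.9 kb: Ccl5 at chr11:83525778-83530518, Ccl9 at chr11:83572919-83578636, Ccl6 at chr11:83587882-83593087 and Ccl3 at chr11:83647844-83649355 on the minus strand, and Ccl4 at chr11:83662584-83664683 on the plus strand. Ccl24 lies alone among the 10 at chr5:135569937-135573049 on the minus strand. Counting is not stated to use strand, so reads of overlapping genes on the other strand cannot be told apart: Ccl6 overlaps E230016K23Rik, which held 0 to 71 counts, and Ccl2 overlaps Gm17268, which was not analysed here.

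RefSeq promoter windows (GRCm38.p6, 250 bases before to 50 bases after the start) were matched for 5 of the 10 genes: Ccl12, Ccl8, Ccl9, Ccl6 and Ccl3. The windows of Ccl12, Ccl8 and Ccl9 are printed because these genes carry the differences between subsets described next, the first pair lower in MoM and the last higher. Capitals mark matches to the motifs searched, on either strand: TATAAA, PU.1 GAGGAA, AP-1 TGANTCA, C/EBP TTNCNNAA, the interferon gamma-activated site TTCNNNGAA and the NF-κB consensus.
Ccl12, plus strand, chr11:82101595-82101894: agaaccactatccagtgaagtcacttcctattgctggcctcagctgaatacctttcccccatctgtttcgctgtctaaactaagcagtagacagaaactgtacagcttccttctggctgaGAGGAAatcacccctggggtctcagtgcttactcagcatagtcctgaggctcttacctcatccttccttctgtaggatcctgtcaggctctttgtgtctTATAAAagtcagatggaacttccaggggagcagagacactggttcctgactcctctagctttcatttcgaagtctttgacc
Ccl8, plus strand, chr11:82114935-82115234: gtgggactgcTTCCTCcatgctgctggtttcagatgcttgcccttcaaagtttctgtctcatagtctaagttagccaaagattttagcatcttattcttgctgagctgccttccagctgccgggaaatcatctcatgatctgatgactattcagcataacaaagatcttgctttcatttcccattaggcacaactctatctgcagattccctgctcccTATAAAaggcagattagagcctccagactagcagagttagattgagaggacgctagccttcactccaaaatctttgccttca
Ccl9, minus strand, chr11:83578587-83578886: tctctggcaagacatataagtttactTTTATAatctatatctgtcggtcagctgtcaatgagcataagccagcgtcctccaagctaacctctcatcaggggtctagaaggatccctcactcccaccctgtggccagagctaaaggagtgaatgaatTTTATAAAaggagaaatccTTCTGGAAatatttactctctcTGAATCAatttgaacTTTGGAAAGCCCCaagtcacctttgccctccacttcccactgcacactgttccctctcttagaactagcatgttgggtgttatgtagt
A TATAAA match begins 31 bases before the start of Ccl12 and 32 bases before that of Ccl8, at nearly the same place in these neighbours. In Ccl9 the forward TATAAA match begins 92 bases before the start, overlapped by a reverse one, with a further reverse match upstream. Over all 32851 promoter windows, 13.6% hold TATAAA, against 3 of the 5 matched members. GAGGAA, the core of sites bound by the macrophage factor PU.1, was found in 3 of the 5 members (Ccl12, Ccl8 and Ccl3) and in 28.3% of all windows. An AP-1 match and an NF-κB match were found in Ccl9 alone of the 5, against 7.81% and 8.46% of all windows, and the NF-κB match overlaps a C/EBP match. C/EBP matches were present in 2 of the 5 (Ccl9 and Ccl3) and in 40.7% of windows, the interferon gamma-activated site in 0 of the 5 and in 8.30%, and the Ccl6 window held none of the motifs. These matches are descriptions of letters in the windows.

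Levels of different genes were compared per kilobase of transcript. In WT Kupffer cells the order of the mean level was Ccl4 (254 CPM per kb), Ccl6 (247), Ccl3 (207), Ccl24 (127), Ccl2 (58.3), Ccl7 (43.7), Ccl5 (18.9), Ccl12 (6.61), Ccl9 (5.55) and Ccl8 (1.44 CPM per kb). The libraries of the neighbours Ccl4 and Ccl6, Ccl2 and Ccl7, and Ccl7 and Ccl5 overlapped in that order. In TG Kupffer cells Ccl4 (521 CPM per kb), Ccl6 (352), Ccl24 (313) and Ccl3 (308) again led, and every pair of neighbours overlapped except Ccl2 (78.8) and Ccl9 (10.6 CPM per kb). In MoM the order was led by Ccl3, at 714 CPM per kb in WT and 875 in TG, followed by Ccl4 (654 and 579), Ccl6 (374 and 312), Ccl5 (143 and 212) and Ccl9 (68.3 and 72.7 CPM per kb). Ccl24 stood seventh in both MoM groups, at 29.5 CPM per kb in WT and 20.1 in TG. Ccl8 was the lowest of the 10 in all 4 groups, at 7.71 CPM per kb in TG Kupffer cells, 0.488 in WT MoM and 0.345 in TG MoM.

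**Figure D2:**
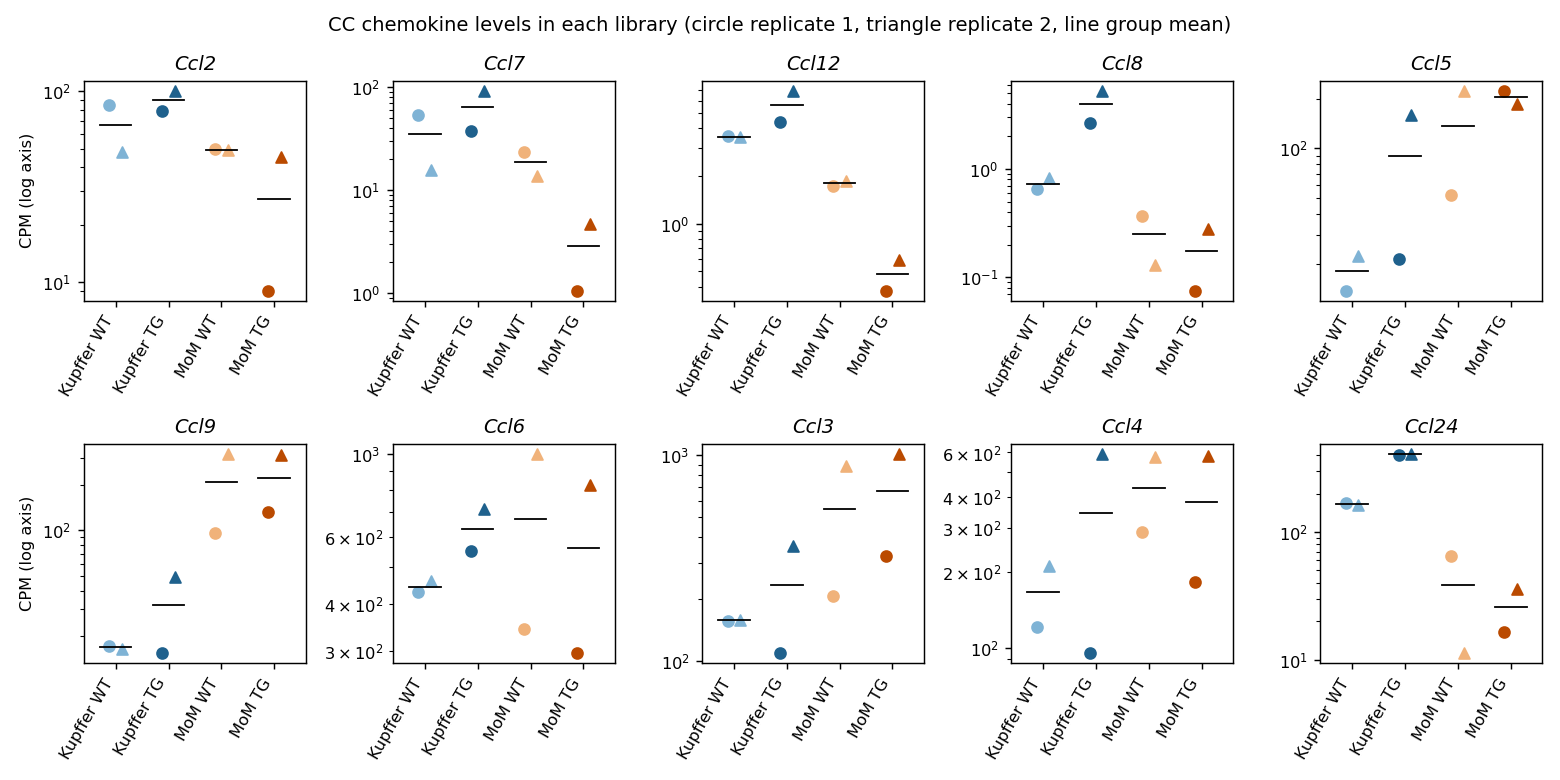
CPM of each of the 10 chemokines in each library, on log axes that differ between panels; circles are library 1, triangles library 2 and black lines the group means. Ccl12, Ccl8 and Ccl24 lie lower in both MoM groups than in the Kupffer group of the same genotype, Ccl9 and Ccl5 lie higher, and Ccl24 stands near 400 CPM in both TG Kupffer libraries.

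The first question was how the subsets differ in chemokine transcripts within a genotype. Called means an adjusted p below 0.05 in edgeR's quasi-likelihood test, fitted on all 8 libraries and adjusted by Benjamini-Hochberg over 15254 genes. In TG mice 1 of the 10 chemokines was called, Ccl12, which was lower in MoM, where 2.5% of all genes were called. In WT mice 0 of the 10 were called, where 1.17% of all genes were. By the same test 3 of the 10 had an unadjusted p below 0.05 in WT mice, and 6 of the 10 in TG mice. The share of all genes below that unadjusted threshold was not computed, here or for the later comparisons. Counts at unadjusted p therefore cannot be set against the shares of called genes. DESeq2 on the same libraries called 3 of the 10 in WT mice (Ccl5 and Ccl9 higher in MoM, Ccl24 lower), with 18.5% of all genes called. It called 5 in TG mice (Ccl9 higher and Ccl7, Ccl8, Ccl12 and Ccl24 lower), with 16.9% of all genes called. Both tools thus gave the same directions and differed in how many genes passed. Over the 10 members the median log2 fold change, MoM over Kupffer cells, was 0.09 in WT mice (all genes 0.11) and -0.94 in TG mice (all genes -0.04).

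Among the ligands of Ccr2, the receptor that brings monocytes into tissue, Ccl12 gave the firmest difference. Ccl12 (mouse MCP-5) stood at 3.59 and 3.51 CPM in WT Kupffer cells, 4.42 and 6.89 CPM in the TG Kupffer libraries, 1.73 and 1.87 CPM in WT MoM, and 0.376 and 0.590 CPM in TG MoM. Every Kupffer library was above every MoM library, and the TG groups lay outside the WT groups on either side. The counts behind these levels were 94 to 187 in the Kupffer libraries, 56 and 58 in WT MoM and 10 and 17 in TG MoM. In TG mice Ccl12 fell by 3.54 ± 0.50 (SE) on the log2 scale from Kupffer cells to MoM, an 11.6-fold difference with adjusted p = 0.0347 in edgeR's quasi-likelihood test. In WT mice the log2 fold change was -0.98 ± 0.45 (adjusted p = 0.227). Over 15 alternatives the TG value stayed between -3.89 and -3.25, and the gene was called in 9 of them, with adjusted p from 8.1e-09 to 0.217. Its call was lost without Kupffer TG 1, Kupffer WT 1, Kupffer WT 2, MoM TG 1 or MoM TG 2. It was also lost with only the 4 TG libraries in the fit (adjusted p = 0.105), where 0% of all genes were called. The share of all genes called fell in each of these fits. Without both Kupffer TG 2 and MoM WT 1 the log2 fold change of Ccl12 in TG mice was -3.29 ± 0.59.

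Ccl7 (MCP-3), another Ccr2 ligand that also binds Ccr1 and Ccr3, stood at 54.2 and 15.8 CPM in WT Kupffer cells, 37.8 and 91.9 CPM in TG Kupffer cells, 23.5 and 13.6 CPM in WT MoM, and 1.05 and 4.72 CPM in TG MoM. Both TG MoM libraries were below every other library, while the WT subsets overlapped. The log2 fold change, MoM over Kupffer cells, was -4.48 ± 1.00 in TG mice (adjusted p = 0.0690) and -0.92 ± 0.87 in WT mice (adjusted p = 0.519). DESeq2 called the TG difference (-4.55 ± 0.85, adjusted p = 5.1e-06). Ccl2 (MCP-1), the principal Ccr2 ligand, stood at 84.8 and 47.9 CPM in WT Kupffer cells, 79.0 and 100.5 CPM in TG Kupffer cells, 49.9 and 49.3 CPM in WT MoM, and 9.04 and 45.6 CPM in TG MoM. MoM TG 1 was the single low library, and the 2 TG subsets did not overlap. In TG mice the log2 fold change was -1.72 ± 0.71 (adjusted p = 0.194), and in WT mice -0.42 ± 0.69 (adjusted p = 0.713).

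Ccl8 (MCP-2), which in mice acts on Ccr8, a receptor of Th2-type T cells, was close to the detection limit in MoM. Its counts were 18 and 22 in WT Kupffer cells, 70 and 142 in TG Kupffer cells, 12 and 4 in WT MoM, and 2 and 8 in TG MoM. The levels were 0.646 and 0.821 CPM, 2.65 and 5.24 CPM, 0.371 and 0.129 CPM, and 0.0753 and 0.278 CPM in the same order. Both TG Kupffer libraries were above all others, and all 4 MoM libraries were below every Kupffer library. From Kupffer cells to MoM the log2 fold change was -4.44 ± 0.97 in TG mice (adjusted p = 0.0668; called by DESeq2 at 6.8e-05) and -1.54 ± 0.88 in WT mice (adjusted p = 0.296).

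In the second block 0 of the 5 chemokines were called between subsets by edgeR in either genotype. Ccl5 (RANTES), made by T and NK cells as well as macrophages, stood at 13.8 and 22.5 CPM in WT Kupffer cells, 21.5 and 158 CPM in TG Kupffer cells, 52.4 and 222 CPM in WT MoM, and 221 and 187 CPM in TG MoM. Kupffer TG 2 was far above the other 3 Kupffer libraries, and MoM WT 1 far below the other 3 MoM libraries. The log2 fold change, MoM over Kupffer cells, was 2.92 ± 1.05 in WT mice (adjusted p = 0.160) and 1.18 ± 0.99 in TG mice (adjusted p = 0.502). Without Kupffer TG 2 and MoM WT 1 it was 3.58 ± 0.33 in WT mice (adjusted p = 0.00430) and 3.14 ± 0.40 in TG mice (adjusted p = 0.0105). The summed level of the 12 T and NK cell markers, of which Ncr1 was at 0 in at least 1 library, was read beside Ccl5. It came to 34.3 and 38.9 CPM in WT and 62.4 and 494 CPM in TG Kupffer cells. In MoM it came to 112 and 500 CPM in WT and 671 and 531 CPM in TG. The markers did not all follow the sum. In TG MoM, where Ccl5 was higher in library 1, Cd3d, Cd3e, Cd3g, Cd8a, Cd4 and Klrd1 were higher in library 2. Nkg7, Gzma, Gzmb, Prf1, Ncr1 and Klrb1c were higher in library 1. The part of T and NK cells in the Ccl5 values was not tested. In bulk libraries such as these, fewer cells of a type and less RNA per cell cannot be told apart.

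Ccl9 (MIP-1γ) and Ccl6 (C10) are adjacent genes whose products act on Ccr1 in mice. Ccl9 stood at 17.3 and 16.5 CPM in WT Kupffer cells, 15.4 and 49.0 CPM in TG Kupffer cells, 96.3 and 320 CPM in WT MoM, and 131 and 312 CPM in TG MoM. All 4 MoM libraries were above all 4 Kupffer libraries, and the lower MoM value of each genotype came from library 1. The log2 fold change was 3.62 ± 0.84 in WT mice (adjusted p = 0.0894) and 2.78 ± 0.81 in TG mice (adjusted p = 0.103). DESeq2 called both, at adjusted p = 8.8e-05 in WT and 0.00433 in TG mice. Without Kupffer TG 2 and MoM WT 1 the edgeR values were 4.20 ± 0.49 (adjusted p = 0.00715) and 3.73 ± 0.60 (adjusted p = 0.0193).

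Ccl6 behaved differently from its neighbour. It stood at 429 and 459 CPM in WT Kupffer cells, 551 and 712 CPM in TG Kupffer cells, 343 and 1001 CPM in WT MoM, and 295 and 826 CPM in TG MoM. Each MoM group straddled its Kupffer group, with library 1 below and library 2 above. The neutrophil marker sums were also higher in library 2 of both MoM groups (548 against 56.8 CPM in WT, 3593 against 110 CPM in TG). In WT most of that difference was in Retnlg (471 against 33.8 CPM). The part of neutrophils in the Ccl6 values was not tested. The log2 fold change was 0.60 ± 0.63 in WT mice (adjusted p = 0.564) and -0.17 ± 0.63 in TG mice (adjusted p = 0.881). The ratio of Ccl9 to Ccl6 CPM within a library was 0.0279 to 0.0689 in the 4 Kupffer libraries and 0.281 to 0.445 in the 4 MoM libraries, so it did not overlap between subsets although Ccl6 itself did.

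Ccl3 (MIP-1α, a ligand of Ccr1) stood at 158 and 159 CPM in WT Kupffer cells, 109 and 362 CPM in TG Kupffer cells, 207 and 887 CPM in WT MoM, and 323 and 1018 CPM in TG MoM. Ccl4 (MIP-1β, an attractant of T cells and monocytes) stood at 122 and 213 CPM, 95.1 and 593 CPM, 290 and 573 CPM, and 183 and 581 CPM in the same groups. In these adjacent genes Kupffer TG 2 was the highest Kupffer library, and in each MoM group library 2 was the higher. The neutrophil marker sums were likewise higher in MoM WT 2 (548 CPM) and MoM TG 2 (3593 CPM) than in their partners (56.8 and 110 CPM). In WT most of that difference was in Retnlg (471 against 33.8 CPM). The part of neutrophils in the Ccl3 and Ccl4 values was not tested. For Ccl3 the log2 fold change, MoM over Kupffer cells, was 1.79 ± 0.91 in WT mice (adjusted p = 0.257) and 1.51 ± 0.90 in TG mice (adjusted p = 0.351). For Ccl4 it was 1.37 ± 0.94 (adjusted p = 0.372) and 0.15 ± 0.92 (adjusted p = 0.933). Neither gene passed edgeR's test in either genotype.

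Ccl24 (eotaxin-2), which attracts eosinophils through Ccr3 and is typical of alternatively activated macrophages, was higher in every Kupffer library than in any MoM library. It stood at 168 and 162 CPM in WT Kupffer cells, 400.0 and 412 CPM in TG Kupffer cells, 65.3 and 11.2 CPM in WT MoM, and 16.3 and 35.7 CPM in TG MoM. Within each Kupffer group the libraries were close together, and the TG pair lay above the WT pair. The highest MoM value was in MoM WT 1, the MoM library with the highest Kupffer marker sum. From Kupffer cells to MoM the log2 fold change was -3.96 ± 0.86 in TG mice (adjusted p = 0.0653; called by DESeq2 at 4.3e-06) and -2.11 ± 0.79 in WT mice (adjusted p = 0.170; called by DESeq2 at 0.0275). Without MoM WT 1 the edgeR log2 fold change was -3.96 in TG mice and -3.89 in WT mice. Over 15 alternatives the TG value lay between -4.63 and -3.50 and was called in 6, with adjusted p up to 0.319, and the WT value lay between -3.92 and -1.34 and was called in 4, with adjusted p up to 0.423. The 4 eosinophil markers summed to 2.87 to 6.09 CPM in the Kupffer libraries and 11.5 to 59.3 CPM in MoM, with Prg2 and Epx at 0 in at least 1 library.

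Counted by overlap, 4 chemokines had both WT MoM libraries above both WT Kupffer libraries (Ccl3, Ccl4, Ccl5 and Ccl9), as did 38.5% of all genes, and 3 had both below (Ccl8, Ccl12 and Ccl24), as did 29.7%. In TG mice 2 of the 10 lay wholly higher in MoM (Ccl5 and Ccl9; 29.1% of all genes), and 5 wholly lower (Ccl2, Ccl7, Ccl8, Ccl12 and Ccl24; 23.8%). The WT counts are near the shares of all genes. Without Kupffer TG 2 and MoM WT 1, edgeR called 3 of the 10 in WT mice (Ccl5, Ccl9 and Ccl24), with 17.1% of all genes called. It called 4 in TG mice (Ccl5, Ccl9, Ccl12 and Ccl24), with 13.6% of all genes called. DESeq2 on only the 4 libraries of a comparison called 5 in WT mice (Ccl3, Ccl4, Ccl5, Ccl9 and Ccl24), against 25% of all genes. In TG mice it called 5 (Ccl7, Ccl8, Ccl9, Ccl12 and Ccl24), against 22.7%. These 2 comparisons share no library, and in both Ccl5 and Ccl9 lay wholly higher and Ccl8, Ccl12 and Ccl24 wholly lower in MoM. The share of all genes lying wholly to the same side in both genotypes was not computed, so this has no background to be read against.

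**Figure D3:**
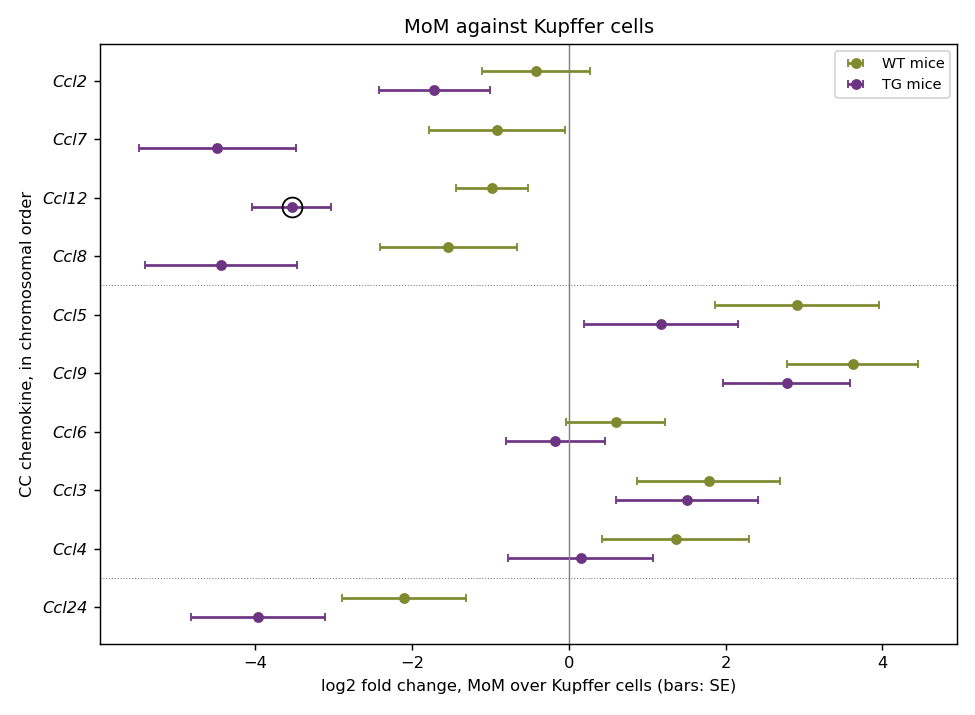
Log2 fold change, MoM over Kupffer cells, for each chemokine in chromosomal order, in WT and in TG mice, with standard errors as bars; grey lines part the 2 blocks of chromosome 11 and Ccl24. The ringed point is the called one, Ccl12 in TG mice at -3.54, and Ccl5, Ccl9 and Ccl3 lie right of 0 in both genotypes.

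The next question was what the genotype does within each subset. In Kupffer cells 0 of the 10 chemokines were called by edgeR, as were 0% of all genes, and 1 (Ccl8) had an unadjusted p below 0.05. DESeq2 on all 8 libraries also called 0 of the 10, with 1.79% of all genes called. All 10 log2 fold changes, TG over WT, were positive, with a median of 0.91 (all genes 0.03, of which 53.1% were positive). Without Kupffer TG 2 the median was 0.29 and 7 were positive, with Ccl3 at -0.49, Ccl4 at -0.76 and Ccl9 at -0.09. The 4 genes whose TG and WT Kupffer libraries did not overlap were Ccl6, Ccl8, Ccl12 and Ccl24, all higher in TG, as were 16.7% of all genes; 0 of the 10 lay wholly lower, as did 17.7%.

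Ccl24 gave the tightest genotype difference. Its mean was 165 ± 4.52 CPM (SD, n = 2) in WT and 406 ± 8.16 CPM (SD, n = 2) in TG Kupffer cells, higher in 2 of 2 TG libraries, with a log2 fold change of 1.30 ± 0.77 (adjusted p = 0.749 in the edgeR fit, whose spread is shared by all 4 groups). The SE of that fit draws on all 4 groups, among them the WT MoM libraries, which differ for this gene (65.3 and 11.2 CPM). With only the 4 Kupffer libraries in the fit, edgeR also called 0 of the 10 members and 0% of all genes. DESeq2 on all 8 libraries gave Ccl24 an adjusted p of 0.578. Over 15 alternatives the log2 fold change lay between 1.26 and 1.36 and was called in 1, the next one given. DESeq2 on only the 4 Kupffer libraries gave 1.32 ± 0.20 and an adjusted p of 6.1e-08, and called 1.35% of all genes. Ccl24 was the 1 member among them. The authors' deposited table of 179 genes, TG against WT, also lists Ccl24 as its 1 member of the 10, with a log2 fold change of 1.32, a standard error of 0.202 and an adjusted p of 5.63e-08. That table does not name its cell type, and its mean levels were within 1% of those of the Kupffer libraries for all 179 genes. It thus appears to rest on the same 4 Kupffer libraries, and its Ccl24 entry is not independent of the fits given here.

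The widest Kupffer differences between genotypes were those of Ccl8 and Ccl5. Ccl8 had a log2 fold change, TG over WT, of 2.42 ± 0.87 (adjusted p = 0.730), higher in 2 of 2 TG libraries; over 15 alternatives it lay between 1.89 and 2.80 and was not called. The value for Ccl5 was 2.31 ± 1.02 (adjusted p = 0.730) and was 0.30 without Kupffer TG 2, the library richest in T and NK cell markers of the 4 Kupffer ones. Ccl12 had 0.67 ± 0.45 (adjusted p = 0.777) and Ccl6 0.51 ± 0.63 (adjusted p = 0.878). Ccl4 had 1.04 ± 0.93, Ccl9 0.93 ± 0.77, Ccl7 0.89 ± 0.87, Ccl3 0.57 ± 0.89 and Ccl2 0.43 ± 0.69, with adjusted p from 0.808 to 0.908. For these 5 genes the WT and TG Kupffer libraries overlapped. Without Kupffer TG 2 the log2 fold change was 0.14 for Ccl7 and 0.29 for Ccl2.

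In MoM 0 of the 10 were called between genotypes by edgeR, as were 0% of all genes, and 2 (Ccl7 and Ccl12) had an unadjusted p below 0.05. DESeq2 on all 8 libraries called 0 of the 10, with 1.01% of all genes called. Ccl12 had a log2 fold change, TG over WT, of -1.88 ± 0.48 (adjusted p = 0.755; DESeq2 0.0600), and both TG libraries were below both WT libraries. Ccl7 had -2.68 ± 0.93 (adjusted p = 0.755; DESeq2 0.0987), lower in 2 of 2 TG libraries. DESeq2 on only the 4 MoM libraries called Ccl7 (-2.70 ± 0.76, adjusted p = 0.0351), 1 of 9 members it tested, with 1.47% of all genes called. Ccl2 (-0.86 ± 0.69, adjusted p = 0.853) also lay wholly lower in TG, chiefly through MoM TG 1. These 3 Ccr2 ligands were the members wholly lower in TG MoM, a pattern of 20% of all genes; 0 of the 10 lay wholly higher, against 19.2%.

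The remaining 7 chemokines overlapped between genotypes in MoM. Their log2 fold changes, TG over WT, were 0.57 ± 0.97 for Ccl5, 0.29 ± 0.89 for Ccl3, 0.09 ± 0.76 for Ccl9, -0.18 ± 0.92 for Ccl4, -0.26 ± 0.63 for Ccl6, -0.48 ± 0.90 for Ccl8 and -0.56 ± 0.76 for Ccl24, with adjusted p from 0.911 to 0.989. Ccl24 turned to 1.23 without MoM WT 1. Over the 10 members the median in MoM was -0.37 (all genes -0.04), with 3 values positive and 7 negative.

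**Figure D4:**
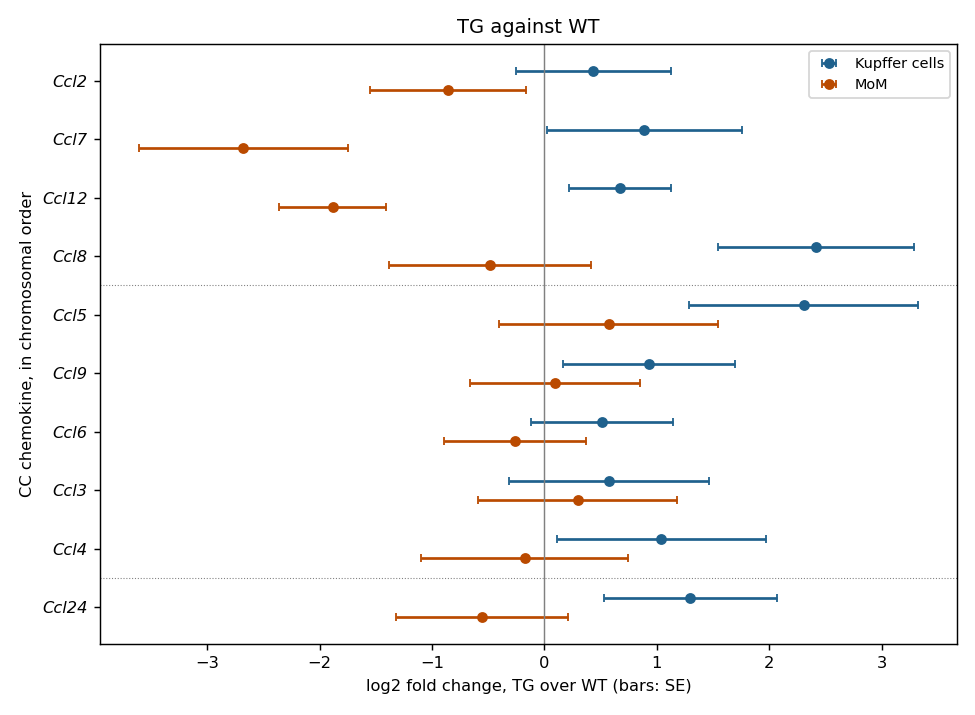
Log2 fold change, TG over WT, for each chemokine in chromosomal order, in Kupffer cells and in MoM, with standard errors as bars; none of the points is called. All 10 Kupffer values lie right of 0, and Ccl7 (-2.68) and Ccl12 (-1.88) are the MoM values farthest left.

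Whether the genotype difference itself differed between subsets was tested as an interaction, the log2 fold change of TG over WT in MoM less the same value in Kupffer cells. By edgeR 0 of the 10 chemokines passed, as did 0% of all genes, and 2 (Ccl7 and Ccl12) had an unadjusted p below 0.05; DESeq2 called 0 of the 10 and 0.289% of all genes. All 10 interaction values were negative, as were 56.5% of all genes, and the median was -1.52 (all genes -0.12). The sign held for all 10 in DESeq2 and under the other scaling, but for 6 of the 10 without Kupffer TG 2, 7 without MoM WT 2 and 9 without MoM TG 1. The strongest by p was Ccl12, at -2.56 ± 0.65 (unadjusted p = 0.00703, adjusted p = 0.626; DESeq2 adjusted p = 0.0998). Ccl7 had -3.57 ± 1.26 and Ccl8 -2.90 ± 1.25 (adjusted p = 0.626 for both). Ccl24 had -1.86 ± 1.08 (adjusted p = 0.638), and Ccl5 -1.74 ± 1.39, Ccl2 -1.29 ± 0.97, Ccl4 -1.22 ± 1.31, Ccl9 -0.84 ± 1.08, Ccl6 -0.77 ± 0.89 and Ccl3 -0.28 ± 1.25 had adjusted p from 0.684 to 0.958.

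The summed level of the 10 chemokines was 1051 and 1100 CPM in WT Kupffer cells, 1317 and 2491 CPM in TG Kupffer cells, 1129 and 3079 CPM in WT MoM, and 1180 and 3009 CPM in TG MoM. The sums fell into no order by group, since 1 library of each of the last 3 groups was close to WT Kupffer cells. The make-up of the sum also varied within groups. The first block (Ccl2, Ccl7, Ccl12 and Ccl8) supplied 6.19% to 13.6% of it in the Kupffer libraries, 6.69% and 2.11% in WT MoM, and 0.893% and 1.70% in TG MoM. Ccl24 supplied 14.7% to 30.4% in the Kupffer libraries, 5.79% and 0.363% in WT MoM, and 1.38% and 1.18% in TG MoM. The second block made up the rest, 60.2% to 79.1% in Kupffer cells, 87.5% in MoM WT 1 and 97.1% to 97.7% in the other 3 MoM libraries. Within the first block the ratio of Ccl7 to Ccl2 CPM was 0.330 to 0.915 in Kupffer libraries, 0.472 and 0.276 in WT MoM, and 0.117 and 0.104 in TG MoM. MoM WT 1, which held Kupffer markers, lay nearest to the Kupffer libraries in all of these shares.

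**Figure D5:**
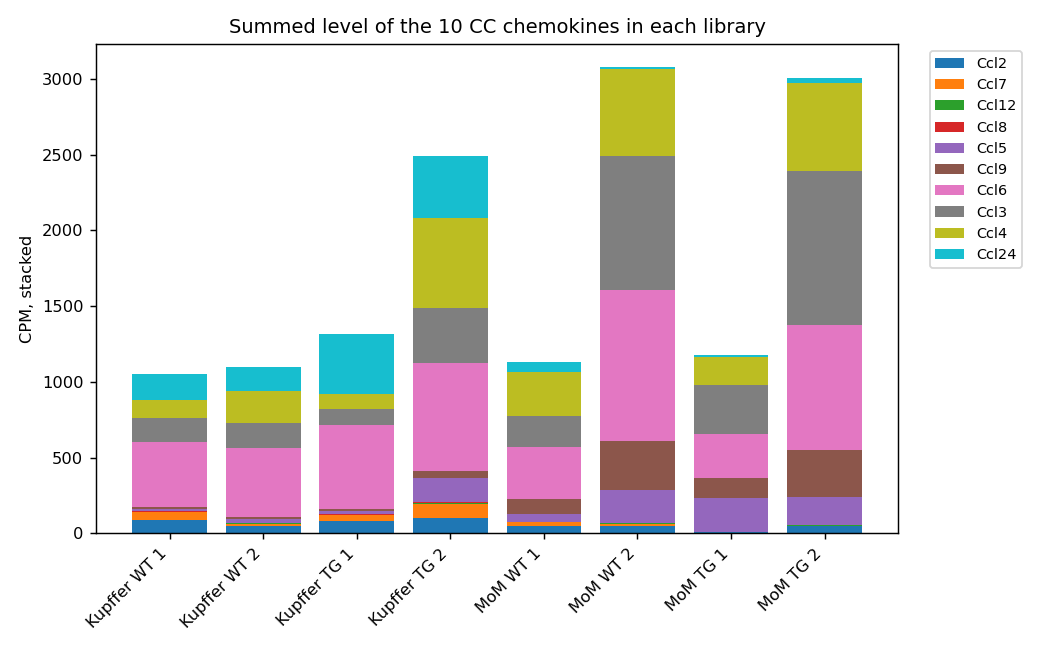
Stacked CPM of the 10 chemokines in each library, not divided by gene length. The sums range from 1051 CPM in Kupffer WT 1 to 3079 CPM in MoM WT 2, and the band of Ccl24 is widest in the TG Kupffer libraries and thin in MoM.

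Of the genes within 50 kb of each block or of Ccl24, named after their values were seen, Ccl11 and Ccl26 did not pass the filter, with at most 0.442 and 0.151 CPM. Wfdc17, beyond Ccl4 in the second block, had means of 545 CPM in WT Kupffer cells, 363 CPM in TG Kupffer cells, 114 CPM in WT MoM and 64.5 CPM in TG MoM. Its log2 fold change, MoM over Kupffer cells, was -2.25 ± 0.82 in WT mice (adjusted p = 0.165) and -2.49 ± 0.83 in TG mice (adjusted p = 0.132), which did not pass the test. Taf15, at the other end of the block, stood at 55.2 to 99.9 CPM in all 8 libraries.

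Other members of the family were read from a list of 14 genes, of which 9 passed the filter. Ccl17, a Ccr4 ligand typical of dendritic cells and alternatively activated macrophages, rose from Kupffer cells to MoM in both genotypes: it stood at 0.575 and 0.635 CPM in WT Kupffer cells, 0.605 and 1.11 CPM in TG Kupffer cells, 28.3 and 52.8 CPM in WT MoM, and 16.2 and 29.5 CPM in TG MoM. The log2 fold changes were 6.06 ± 0.58 in WT mice (adjusted p = 0.0260) and 4.73 ± 0.54 in TG mice (adjusted p = 0.0277). Over 15 alternatives its values stayed between 5.53 and 6.43 and between 4.24 and 5.12, and it was called in 10 and 9 of them. Leaving out either WT Kupffer library or either TG MoM library ended its call in both genotypes. Leaving out MoM WT 2 ended it in WT mice, and leaving out Kupffer TG 1 ended it in TG mice. In TG mice the call was also lost with only the 4 TG libraries in the fit, where 0% of all genes were called. The share of all genes called also fell in each of these fits. Ccl17 was the 1 gene of the list called in each of these 2 subset comparisons, and 0 of the 9 were called between genotypes or for the interaction. The 6 dendritic cell markers, all above 0 in every library, summed to 38.6 to 141 CPM in Kupffer libraries and 486 to 814 CPM in MoM. From Kupffer cells to MoM 6 of the 6 had a positive log2 fold change in WT mice, but 3 of the 6 in TG mice. In TG mice Flt3 stood at 1.74 and 17.4 CPM in Kupffer cells and 205 and 199 CPM in MoM. Xcr1 stood there at 5.93 and 28.1 CPM in Kupffer cells and 4.59 and 13.1 CPM in MoM. The part of dendritic cells in the Ccl17 values was not tested. The list's median log2 fold change was 6.06 and -1.47 from Kupffer cells to MoM in WT and TG mice, 3.17 and -0.53 for TG over WT in Kupffer cells and MoM, and -4.10 for the interaction. The authors' deposited table also lists Ccl21a, Ccl21b and Ccl21c, with log2 fold changes of 22.5, 24.6 and 24.7; these are near-identical copies whose counts are uncertain, and Kupffer TG 2 is the sole Kupffer library with counts of them.

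Receptors for the 10 ligands were read from 14 receptor genes, all tested. Ccr2, which binds Ccl2, Ccl7 and Ccl12, was higher in MoM than in Kupffer cells: it was at 6.46 and 3.88 CPM in WT Kupffer cells, 10.1 and 13.1 CPM in TG Kupffer cells, 128 and 186 CPM in WT MoM, and 216 and 460 CPM in TG MoM. The log2 fold changes were 4.92 ± 0.52 in WT mice (adjusted p = 0.0260) and 4.86 ± 0.51 in TG mice (adjusted p = 0.0248). Its call ended under the same single-library exclusions as that of Ccl17, and in TG mice also with only the 4 TG libraries in the fit. In WT mice Ccr7, the lymph node homing receptor, was also called higher in MoM (6.80 ± 0.99, adjusted p = 0.0409). Its call held in 10 of 15 alternatives and ended without either WT Kupffer library, either TG MoM library or MoM WT 2 (adjusted p up to 0.378). The 6 dendritic cell markers summed to 59.2 and 38.6 CPM in WT Kupffer cells and 632 and 814 CPM in WT MoM, and their part in the Ccr7 values was not tested. In all, 2 of 14 receptors were called in WT and 1 of 14 in TG mice. Between genotypes and for the interaction 0 of 14 were called; the medians in the 5 comparisons were 3.23, 0.16, 1.60, -0.07 and -1.09, in the order MoM over Kupffer cells in WT and TG, TG over WT in Kupffer cells and MoM, and interaction. Ccr1, the receptor of Ccl3, Ccl5, Ccl6 and Ccl9, stood at 0.790 to 4.61 CPM in Kupffer cells and 14.7 to 110 CPM in MoM without overlap. Ccr3, the receptor of Ccl24, stood at 2.21 to 7.94 CPM in Kupffer cells and 6.64 to 93.4 CPM in MoM, with overlap.

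Signals that act on chemokine genes were read from 3 further lists. Of 12 transcriptional regulators, Nfkb2 was the 1 gene called, higher in TG MoM than in TG Kupffer cells (1.22 ± 0.21, adjusted p = 0.0476), and it was called in 4 of 15 alternatives, with adjusted p up to 0.242. Of 14 inducing cytokines and receptors 0 were called in any of the 5 comparisons. Il4ra, a receptor chain for the cytokines that raise Ccl24 in mouse macrophages, stood at 177 and 206 CPM in WT and 249 and 313 CPM in TG Kupffer cells (log2 fold change 0.55 ± 0.22, adjusted p = 0.730). In MoM Il4ra stood at 196 and 216 CPM in WT and 375 and 336 CPM in TG (0.79 ± 0.22, adjusted p = 0.755). There Ccl24 had a log2 fold change, TG over WT, of -0.56 ± 0.76. A link between Il4ra and Ccl24 was not tested. Of 14 genes that respond to tissue dissociation 1 was called, Nr4a1, higher in TG MoM than in TG Kupffer cells (2.14 ± 0.38, adjusted p = 0.0476; called in 5 of 15 alternatives, with adjusted p up to 0.245). The medians of the 3 lists, MoM over Kupffer cells in TG mice, were 0.25 for regulators, 0.25 for cytokines and receptors and -0.26 for dissociation genes.

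The 3 genes most like Ccl12 across the 8 libraries, among 9141 with a mean of at least 10 CPM, were Sumo3, Selenow and Csrp1, with Pearson r of 0.98, 0.98 and 0.97 on the log2(CPM + 0.5) scale. The points share library, subset and depth, so these values describe the pattern. Csrp1 stood at 288 to 351 CPM in Kupffer cells and 122 to 198 CPM in MoM, a narrower span than that of Ccl12, whose highest library was 18.3 times its lowest.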

How the data were processed

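Alignment was to mm10 with STAR 2.5.2b, per the submitters' processing notes; which counter, annotation and strand option followed is not stated there. The deposited files hold counts, 1 whole number per gene symbol and library, without normalization. Below 20, 65.0% to 68.0% of counts are even, so counts may overstate independent fragments. The authors' deposited table holds a baseMean (another unit, a mean of normalized counts), log2 fold changes with errors, a Wald statistic (a score) and p-values.

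Groups came from the sample titles. All 8 libraries were fitted together in edgeR 4.0.16 (R 4.3.3): filterByExpr, TMM, quasi-likelihood F-test and Benjamini-Hochberg adjustment over 15254 genes, called below 0.05. The fit had 4 residual and 2.37 prior degrees of freedom and a common coefficient of biological variation of 0.507. Tested on simulated data for MoM against Kupffer cells in TG mice (15254 genes), it found 0 of 50 genes altered by a fold of 2, 9 of 50 at a fold of 4, 37 of 50 at 8 and 43 of 50 at 16, with 4 false calls. Alternatives tried: scaling by median-of-ratios size factors, testing without the filter, a replicate block, each library left out, 4-library fits, DESeq2 1.42.0, and leaving out Kupffer TG 2 with MoM WT 1 (the lone libraries left are assumed to vary like the other groups); DESeq2 on 4 libraries was added after seeing the data. The members, lists and tests were chosen with earlier results of these data known. The genes named are all 10 members, from each list those called (up to 3 per comparison by p) or, with none called, up to 2 as values, the 3 genes most like Ccl12, and the markers; receptors Ccr1 and Ccr3 and genes near the blocks were added after their values were seen. Some listed genes that this rule would name are not reported here.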

Additional observations from a re-analysis of the deposited data

Results flagged for a closer look

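Ccl12 met a check for opposite effects in the subsets: both TG Kupffer libraries (4.42 and 6.89 CPM) were above both WT Kupffer libraries (3.59 and 3.51 CPM), and both TG MoM libraries (0.376 and 0.590 CPM) were below both WT MoM libraries (1.73 and 1.87 CPM). The log2 fold change of TG over WT in MoM less the same value in Kupffer cells was -2.56, with an adjusted p of 0.626 in edgeR's quasi-likelihood test of the interaction. Over 13 alternatives it lay between -2.91 and -2.26 and was called in 0 of them. Groups of 2 libraries are too small for a check of single libraries that stand apart from their group.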

How the results depend on the processing

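The number of members called moved with the tool and the libraries. In TG mice (MoM against Kupffer cells, 1 in the report) it was 2 with no filter on low counts, 0 with only the 4 libraries compared, 5 with DESeq2, 4 without Kupffer TG 2 and MoM WT 1, 5 with DESeq2 on the 4 libraries, and 0 to 2 with 1 library left out. In WT mice (0 in the report) the counts were 1 with only the 4 libraries compared (Ccl9), 3 with DESeq2, 3 without Kupffer TG 2 and MoM WT 1, 5 with DESeq2 on the 4 libraries, and 0 to 1 with 1 library left out. Between genotypes the count was 1 in each subset with DESeq2 on the 4 libraries, with 1.35% of all genes called in Kupffer cells and 1.47% in MoM. The share of all genes called moved too. For MoM against Kupffer cells in TG mice it was 2.5% in the report, 2.7% with no filter, 0% with only the 4 libraries compared, 16.9% with DESeq2 and 22.7% with DESeq2 on the 4 libraries. In WT mice the share was 1.17%, 1.34%, 10.9%, 18.5% and 25% in that order. With 1 library left out it moved as well. The size factors changed no call or sign of the 50 values.

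Without Kupffer TG 2 and MoM WT 1, TG over WT in Kupffer cells turned for Ccl3 (-0.49), Ccl4 (-0.76) and Ccl9 (-0.089); in MoM it turned for Ccl3 (-0.44), Ccl5 (-0.14), Ccl8 (0.42), Ccl9 (-0.56) and Ccl24 (1.19); the interaction turned for Ccl3 (0.049) and Ccl4 (0.14). The cause was not tested.

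With 1 library left out, TG over WT in Kupffer cells spanned -0.49 to 1.16 for Ccl3, -0.76 to 1.80 for Ccl4 and -0.088 to 1.51 for Ccl9. In MoM it spanned -0.75 to 1.70 for Ccl3, -1.23 to 0.44 for Ccl4, -0.12 to 1.96 for Ccl5, -1.18 to 0.71 for Ccl6, -1.67 to 0.46 for Ccl8, -0.66 to 1.20 for Ccl9 and -1.33 to 1.23 for Ccl24. MoM over Kupffer cells spanned -0.85 to 0.024 for Ccl2, -0.37 to 1.16 for Ccl6 and -1.62 to 0.20 for Ccl7 in WT mice, and -0.91 to 1.88 for Ccl4 and -1.10 to 0.39 for Ccl6 in TG mice. The interaction spanned -1.32 to 1.13 for Ccl3, -2.27 to 0.56 for Ccl4, -2.54 to 0.26 for Ccl5, -1.69 to 0.20 for Ccl6 and -1.59 to 0.27 for Ccl9. A group left with 1 library was assumed to vary like the others.

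The labels do not say whether a replicate number pairs libraries, so no pairing was assumed: deviations of same-numbered libraries correlated at -0.14 to 0.62 between groups, highest between the TG subsets, and not above 0.1 in every pair. With the number as a replicate block, 1 member was called (Ccl12 in TG mice) and 0 in the other 4 comparisons, as without it, and the Ccl3 interaction turned to 0.21. A fit of the interaction on 4 libraries is not possible, and Ccl8 was too low to be tested in the MoM libraries alone. Ccl8 and Ccl12 in TG MoM rest on 2 to 17 counts a library, which limits their folds.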
